A study of Mus musculus with 6 samples.

Results

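Purkinje cells are the large inhibitory neurons of the cerebellar cortex and carry its whole output to the deep nuclei. Glutamate from granule cell axons acts on them through metabotropic receptors, whose G protein and phospholipase C produce inositol trisphosphate, which opens calcium channels of the endoplasmic reticulum. They are known for unusually high amounts of those channels and of calcium-binding proteins, and some of these proteins also mark neurons of the cortex, hippocampus, striatum and thalamus. The genes described here are 10 genes of Purkinje cell identity and signalling, taken by symbol from a table of 23057 genes, and all 10 were found in it. They were split by known sites of expression into 5 genes largely restricted to Purkinje cells within the cerebellum and sparse elsewhere in the brain (Pcp2, Ppp1r17, Car8, Lhx1 and Lhx5) and 5 shared with the forebrain (Calb1, Itpr1, Rora, Pvalb and Pcp4).

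The RNA came from brains of C57BL/6 mice (C57BL6/J in the series design), 3 mock-irradiated and 3 given 10 Gy of X-rays to the head through a collimated field, all perfused with saline and taken 30 days after the exposure. The labels call the tissue whole brain and give neither age nor sex, nor which brain regions lay inside the field. Levels are FPKM, that is fragments divided by transcript length and by the total mapped, from total RNA depleted of ribosomal RNA, so they can be set side by side between genes. Libraries are named by group and replicate number. Differences are irradiated minus mock on the log2(FPKM + 0.5) scale, given ± SE. The labels count mice, 3 per group, but the p-values measure no more than the spread between these 6 libraries.

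Of the 14585 genes averaging 0.5 FPKM or more, 4.24% were called lower and 3.48% higher after irradiation (limma on log2(FPKM + 0.5), Benjamini-Hochberg adjusted p under 0.05). Of those called, 45.1% were higher, against 29.8% after scaling each library to the same FPKM sum, which moved the median log2 change of all tested genes to -0.20. The 3 irradiated libraries lay below the 3 mock libraries for 17.7% of tested genes and above them for 13.7%. Markers of brain regions moved widely between the same libraries. The summed level of 10 cerebellar granule cell markers was 431 to 637 FPKM in mock and 37.1 to 57.1 FPKM in irradiated libraries. The sum of 6 markers of the cerebellar nuclei and brainstem was 95.7 to 117 FPKM in mock and 18.6 to 44.0 FPKM in irradiated libraries. The sum of 9 excitatory telencephalic markers ran the other way, at 179 to 668 FPKM in mock, lowest in mock 2, and 1355 to 2604 FPKM in irradiated libraries. Gabra6 was listed at 0 in irradiated 2, and no other marker of these 3 lists was listed at 0 in any library. For 6 general neuron genes the sums overlapped, at 2288 to 2689 and 2235 to 2661 FPKM. How much cerebellum each library held was not measured, so a difference in the tissue sampled and an effect of irradiation cannot be told apart for the genes below, nor can fewer Purkinje cells and less RNA per cell.

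Start-site windows from RefSeq (GRCm38.p6, 250 bases before to 50 after a start) were available for 5 of the 10 genes. Those of Pcp2 and Pcp4 are shown because these genes gave the largest and the smallest change of the 10, and that of Lhx1 because a second transcript starts in it. In the first 2 windows capitals mark AGGTCA or its reverse complement TGACCT, the half-site core bound by Rora, one of the 10 genes. In the Lhx1 window capitals mark the 125 bases between its start and that of Lhx1os, a noncoding RNA read from the other strand.
Pcp2 (chr8:3625498-3625797, minus strand): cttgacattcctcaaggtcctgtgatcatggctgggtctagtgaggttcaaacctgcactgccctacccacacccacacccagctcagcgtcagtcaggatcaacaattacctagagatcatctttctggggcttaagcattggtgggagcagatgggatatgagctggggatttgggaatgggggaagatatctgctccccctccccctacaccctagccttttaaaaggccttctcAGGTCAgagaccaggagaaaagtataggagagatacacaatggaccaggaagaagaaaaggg
Pcp4 (chr16:96467356-96467655, plus strand): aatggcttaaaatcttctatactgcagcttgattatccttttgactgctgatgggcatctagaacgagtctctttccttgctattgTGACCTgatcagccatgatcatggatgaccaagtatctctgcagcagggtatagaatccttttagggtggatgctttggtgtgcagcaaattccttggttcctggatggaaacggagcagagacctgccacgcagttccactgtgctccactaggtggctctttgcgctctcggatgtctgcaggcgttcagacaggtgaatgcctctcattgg
Lhx1 (chr11:84525485-84525784, minus strand): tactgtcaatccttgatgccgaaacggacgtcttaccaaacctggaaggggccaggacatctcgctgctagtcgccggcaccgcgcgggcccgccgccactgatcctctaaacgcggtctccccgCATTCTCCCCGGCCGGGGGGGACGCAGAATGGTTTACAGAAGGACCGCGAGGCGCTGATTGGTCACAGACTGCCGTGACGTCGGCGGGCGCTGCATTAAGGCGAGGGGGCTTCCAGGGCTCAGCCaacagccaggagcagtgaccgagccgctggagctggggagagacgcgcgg
The match lay 12 bases before the start in Pcp2 and began 164 bases before it in Pcp4, on the opposite strand there. The Pcp2 window shown is 1 of 4 in the table, of which 3 held the letters, the others 87 and 26 bases before their own starts. These windows overlap in part, and the match 87 bases before its start is the same site as the 1 printed. The match 26 bases before its start is a separate site. Windows of Rora, Lhx1 and Pvalb held none. Searched on both strands, the 6 letters occurred in 16.3% of the 32851 windows in the table. The core TAATTA, which LIM homeodomain proteins such as Lhx1 and Lhx5 can bind and which reads the same on both strands, was in none of the 3 windows printed and in 5.29% of all windows. A further Pcp2 window at a start inside the gene (chr8:3625233-3625532) held it 101 bases before that start. These matches describe letters in the windows shown and no binding was measured.

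Of the 10 Purkinje cell genes, 9 were lower after irradiation and 0 were higher by limma at an adjusted p under 0.05, beside the 4.24% called lower among all tested genes. At an unadjusted p under 0.05 the counts were also 9 and 0, beside 2033 lower and 1705 higher of all 14585 tested genes. Their median log2 change was -1.89, against -0.02 over all tested genes. All 5 restricted genes fell, with a median of -5.37, and 4 of the 5 shared genes fell, with a median of -1.46. The genes and this split were chosen with earlier results of these data known, so the contrast is a description and not an independent test. The 2 groups overlapped, with restricted genes from -6.54 (Pcp2) to -1.11 (Lhx5) and shared genes from -1.92 (Pvalb) to -0.22 (Pcp4). Every gene that fell had its 3 irradiated libraries below its 3 mock libraries, beside 17.7% of all tested genes. All 10 genes passed the filter, with Lhx5 and Lhx1 the lowest. The count of 9 dropped to 5 without mock 1 and to 5 without mock 2, and stayed between 7 and 9 without any other library.

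**Figure D1:**
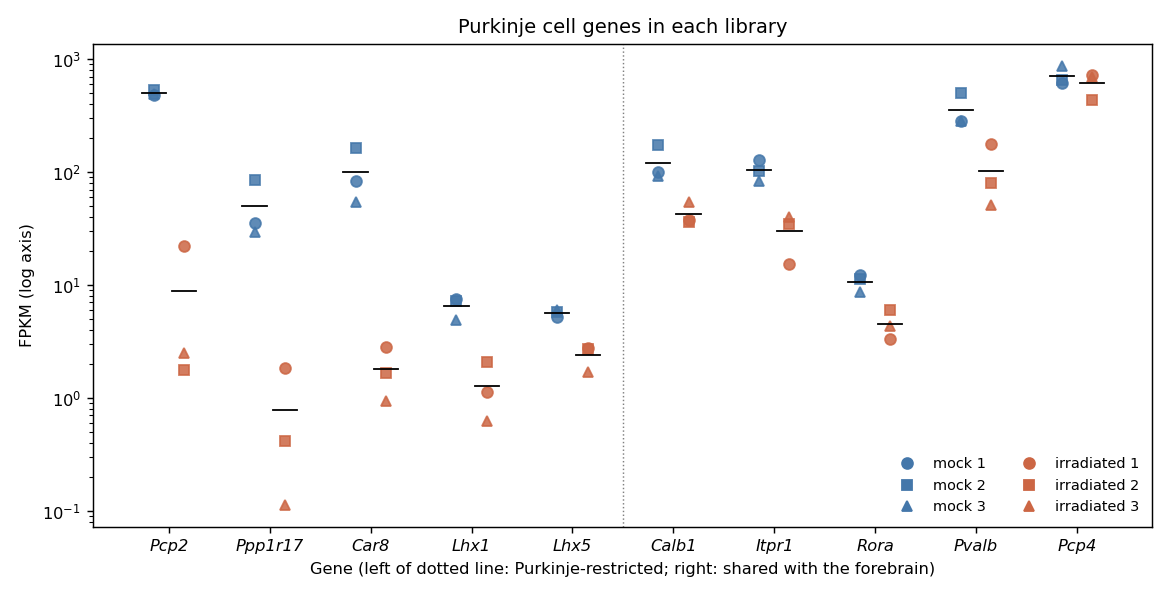
FPKM of the 10 Purkinje cell genes in each library on a log axis, with mock in blue, irradiated in orange, marker shapes for the replicate number and a black line at each group mean. Pcp2, Ppp1r17 and Car8 stand apart from the other genes by the width of the gap between groups, and the Pcp4 values of the groups overlap.

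Pcp2, also called L7, encodes a small modulator of G protein alpha subunits and is the classic Purkinje cell transcript (chromosome 8, 3623369 to 3625547, GRCm38.p6). It was at 478, 535 and 489 FPKM across mock 1 to 3, against 22.2, 1.78 and 2.51 FPKM across irradiated 1 to 3. The mock libraries were close together and ranked it between the 111th and 177th most abundant gene, while its rank was 4089 in irradiated 1, 12193 in irradiated 2 and 11294 in irradiated 3. Irradiated 1 was 12.5-fold above irradiated 2, yet it kept 4.44% of the mock mean. Its log2 difference was -6.54 ± 0.73 (adjusted p = 0.0017 in limma), and -7.58 without irradiated 1. On the opposite strand the same locus is covered by Pet100, a mitochondrial assembly factor, at 14.4 to 19.5 FPKM in mock and 15.4 to 22.1 FPKM in irradiated libraries. The libraries were stranded, but whether the counting used strand is not given in the sources used here, so the lowest Pcp2 values are uncertain.

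Ppp1r17, also called G-substrate, is a phosphatase inhibitor that cGMP-dependent protein kinase switches on in Purkinje cells (chromosome 6, 56017497 to 56032689). Its levels were 35.3, 85.8 and 29.3 FPKM across mock 1 to 3, against 1.83, 0.417 and 0.113 FPKM across irradiated 1 to 3. Mock 2 was the highest of its group and irradiated 1 the highest of the other, and the gap between the groups was wide. The mean went from 50.1 ± 31.1 to 0.787 ± 0.917 FPKM (SD, n = 3 each), a log2 difference of -5.37 ± 0.53 (adjusted p = 0.0010 in limma). With smaller or larger pseudocounts this change was -6.23 (0.1) or -4.79 (1), since the irradiated values lie near the pseudocount.

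Car8 encodes a carbonic anhydrase-related protein without enzyme activity that binds the inositol trisphosphate receptor and lowers its affinity for its ligand (chromosome 4, 8141493 to 8239041). It was at 84.0, 163 and 54.4 FPKM across mock 1 to 3, against 2.81, 1.67 and 0.933 FPKM across irradiated 1 to 3. As for Ppp1r17, mock 2 was highest and mock 3 lowest, and among irradiated libraries the first was highest and the third lowest. For Car8 the log2 difference was -5.39 ± 0.42 (adjusted p = 0.00039 in limma). Pcp2, Ppp1r17 and Car8 thus kept 1.76%, 1.57% and 1.79% of their mock means.

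The LIM homeodomain factors Lhx1 and Lhx5, which act together in making Purkinje cells in the embryo, fell less. Lhx1 (chromosome 11, 84517975 to 84525534) was at 7.53, 7.19 and 4.89 FPKM across mock 1 to 3, against 1.12, 2.07 and 0.627 FPKM across irradiated 1 to 3. Irradiated 2, which had the lowest Pcp2, had the highest Lhx1 of its group. The log2 change of Lhx1 was -2.05 ± 0.31 (adjusted p = 0.0066 in limma), with 19.5% of the mock mean left. Lhx5 (chromosome 5, 120431886 to 120441457) was at 5.22, 5.71 and 5.99 FPKM across mock 1 to 3, against 2.78, 2.72 and 1.68 FPKM across irradiated 1 to 3. Its groups did not overlap, but 42.4% of the mock mean remained, the most of the 5 restricted genes. The log2 change of Lhx5 was -1.11 ± 0.20 (adjusted p = 0.016 in limma), and the adjusted p rose to 0.054, 0.056 and 0.055 without mock 1, mock 2 or mock 3. Both factors are also known from a few groups of hypothalamic and other neurons outside the cerebellum.

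Lhx1os, whose start faces that of Lhx1 across the capital letters printed above (chromosome 11, 84525660 to 84535831 in GENCODE M21), was looked up after the values of Lhx1 were seen. It was at 22.3, 40.8 and 28.7 FPKM across mock 1 to 3, against 12.8, 8.13 and 4.07 FPKM across irradiated 1 to 3. Like Lhx1 it was lowest in irradiated 3 and its groups did not overlap, but it was highest in mock 2 where Lhx1 was highest in mock 1. Its log2 change was -1.91 ± 0.38 (adjusted p = 0.021 in limma), with an adjusted p of 0.076 without mock 2 and 0.053 without mock 3.

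Rora, the nuclear receptor whose loss in the staggerer mouse stops Purkinje cell maturation and which is also strong in thalamus and in layer IV of the cortex, was lower as well (chromosome 9, 68653404 to 69388246). It was at 12.1, 11.3 and 8.70 FPKM across mock 1 to 3, against 3.32, 5.96 and 4.30 FPKM across irradiated 1 to 3. Irradiated 1 was the lowest of its group, where it had been the highest for Pcp2, Ppp1r17 and Car8. Rora differed by -1.18 ± 0.23 (adjusted p = 0.020 in limma), with 42.3% of the mock mean left. That call was lost without mock 1 (adjusted p = 0.081), mock 2 (0.070) or irradiated 3 (0.073).

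**Figure D2:**
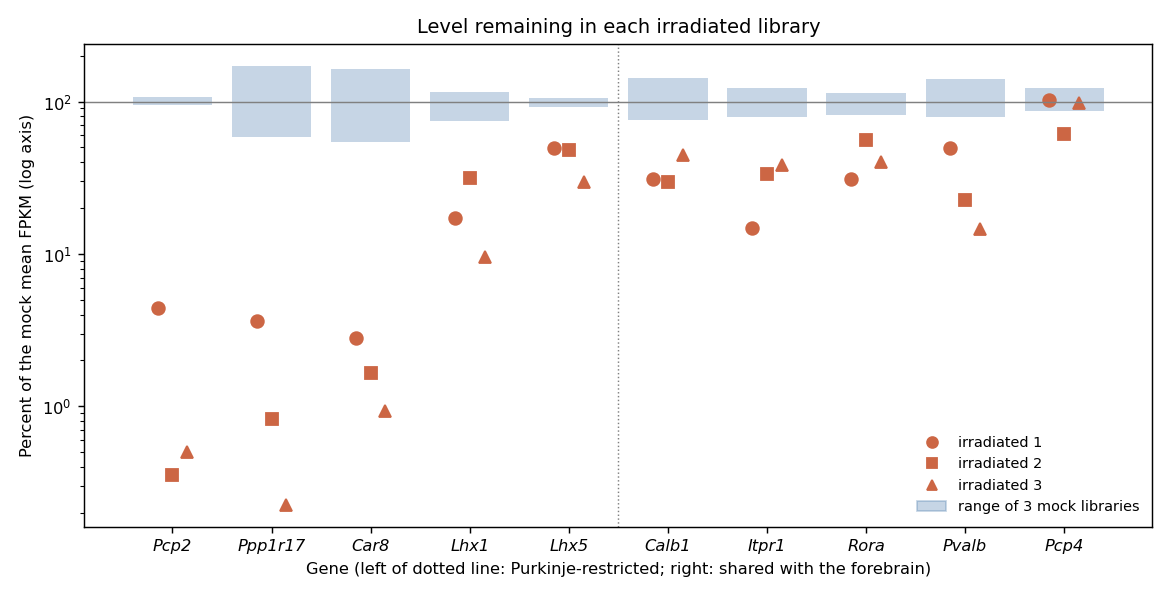
FPKM of each irradiated library as a percent of the mock mean on a log axis, for each of the 10 genes, with the range of the 3 mock libraries as a blue band. Pcp2, Ppp1r17 and Car8 lie under 5% in every irradiated library, Lhx1, Lhx5 and the shared genes other than Pcp4 between 9.59% and 55.6%, and Pcp4 between 61.5% and 102%.

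Itpr1, the type 1 inositol trisphosphate receptor that releases calcium from the endoplasmic reticulum, is also made by neurons of the hippocampus, striatum and cortex (chromosome 6, 108213083 to 108551116). It was at 127, 103 and 82.6 FPKM across mock 1 to 3, against 15.3, 35.0 and 40.1 FPKM across irradiated 1 to 3. The lowest value was again in irradiated 1, the library with the most Pcp2 in its group. The fall measured -1.86 ± 0.34 (adjusted p = 0.017 in limma), and it was not called without mock 1 (adjusted p = 0.066) or mock 2 (0.059). Set against its binding partner within a library, Car8 was at 0.662, 1.59 and 0.658 of the Itpr1 level in mock and at 0.183, 0.0478 and 0.0233 in irradiated libraries.

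Calb1 encodes calbindin, a fast calcium buffer found in nearly all Purkinje cells and also in striatal, dentate granule and upper-layer cortical neurons (chromosome 4, 15881264 to 15906709). It was at 99.1, 173 and 91.4 FPKM across mock 1 to 3, against 37.5, 35.9 and 54.2 FPKM across irradiated 1 to 3. Mock 2 was high, irradiated 3 was the highest of the irradiated group, and the groups did not overlap. Calbindin RNA differed by -1.46 ± 0.27 (adjusted p = 0.018 in limma), with 35.1% of the mock mean left. It remained called in all 19 alternatives, with a largest adjusted p of 0.049.

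Pvalb encodes parvalbumin, the calcium buffer of Purkinje cells, cerebellar molecular layer interneurons and fast-spiking forebrain interneurons (chromosome 15, 78191112 to 78206400). It was at 281, 496 and 282 FPKM across mock 1 to 3, against 176, 79.6 and 51.3 FPKM across irradiated 1 to 3. The irradiated libraries were spread over 3.43-fold with irradiated 1 on top, but all lay below the mock range. On the log2 scale the fall was -1.92 ± 0.43 (adjusted p = 0.033 in limma), and this was the least steady call of the 9. It was lost without mock 1 (adjusted p = 0.075), mock 2 (0.111), mock 3 (0.060), irradiated 2 (0.073) or irradiated 3 (0.103), without the filter (0.067) and with the replicate number as a block (0.0515).

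Among 8 other genes of GABA neurons 3 rose in the same libraries and 0 fell (limma, and also 3 and 0 at an unadjusted p under 0.05). By limma 3.48% of all tested genes were called higher and 4.24% lower, and at an unadjusted p under 0.05, 1705 of 14585 were higher and 2033 lower. The 3 were Lhx6, a factor of cortical interneurons from the medial ganglionic eminence (2.45 ± 0.36 log2), and the interneuron peptides Sst (1.79 ± 0.39) and Vip (1.37 ± 0.33). Gad1, Gad2 and Slc32a1, which make and load GABA in Purkinje cells and forebrain interneurons alike, showed log2 differences of -0.27, -0.03 and -0.20 and were not called (limma adjusted p = 0.51, 0.94 and 0.61). Dlx1 and Dlx2, factors of forebrain GABA neuron precursors, had log2 differences of 0.23 ± 1.16 and 0.21 ± 0.89 (limma adjusted p = 0.92 and 0.90). Their mock libraries were far apart. Dlx1 was at 13.2, 0.0163 and 11.5 FPKM and Dlx2 at 5.80, 0 and 4.94 FPKM across mock 1 to 3. Both were called lower without mock 2 and irradiated 1 together (-1.93 and -1.48, limma adjusted p = 0.0033 and 0.0045). The Lhx6 call held in all 19 alternatives. Those of Sst and Vip were lost without mock 1 (adjusted p = 0.104 and 0.079), mock 2 (0.110 and 0.056) or irradiated 3 (0.075 and 0.143) and without the filter (0.0624 and 0.0785), and that of Vip also without irradiated 1 (0.0645) or irradiated 2 (0.0523).

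Pcp4, also called PEP-19, encodes a small calmodulin-binding protein of Purkinje cells that is abundant in striatum, thalamus, deep cortical layers and hippocampal area CA2 as well (chromosome 16, 96467606 to 96525793). It was at 610.4, 646 and 869 FPKM across mock 1 to 3, against 725, 436 and 688 FPKM across irradiated 1 to 3. The groups overlapped, since irradiated 1 and 3 lay within the mock range and irradiated 2 below it. The log2 difference of Pcp4 was -0.22 ± 0.27 (95% interval -0.83 to 0.39, limma adjusted p = 0.63). It was 0.013 without irradiated 2, and quantile normalization gave -0.57 with an adjusted p of 0.0495. The gene lies within the annotated span of Igsf5 on the same strand, which stayed under 1 FPKM in each library (0.414, 0.608 and 0.802 in mock, 0.226, 0.113 and 0.0818 in irradiated libraries).

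The order of the levels changed accordingly. By mean FPKM in mock the order was Pcp4 (709), Pcp2 (501), Pvalb (353), Calb1 (121), Itpr1 (104), Car8 (101), Ppp1r17 (50.1), Rora (10.7), Lhx1 (6.53) and Lhx5 (5.64). In this order the library values of Pcp4 and Pcp2 did not overlap, while Pcp2 and Pvalb, Calb1, Itpr1 and Car8, Car8 and Ppp1r17, and Lhx1 and Lhx5 overlapped between neighbours, and the other neighbours did not. In irradiated libraries the order of means was Pcp4 (616), Pvalb (102), Calb1 (42.5), Itpr1 (30.1), Pcp2 (8.83), Rora (4.53), Lhx5 (2.39), Car8 (1.80), Lhx1 (1.27) and Ppp1r17 (0.787). There Pcp4 stood clear of Pvalb, and each later neighbour overlapped with the next, other than Rora and Lhx5. Pcp2 was at 0.782, 0.827 and 0.563 of the Pcp4 level in mock and at 0.0306, 0.0041 and 0.0037 in irradiated libraries.

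The genes also differed in which library was high. In mock, 5 of the 10 genes (Pcp2, Ppp1r17, Car8, Calb1 and Pvalb) were highest in mock 2, the library with the lowest telencephalic sum, while Lhx1, Itpr1 and Rora were highest in mock 1 and Lhx5 and Pcp4 in mock 3. In the irradiated group 6 of the 10 were highest in irradiated 1 (Pcp2, Ppp1r17, Car8, Lhx5, Pvalb and Pcp4). The sum of the 5 restricted genes was 584 to 797 FPKM in mock libraries, against 30.7, 8.66 and 5.87 FPKM across irradiated 1 to 3. The granule cell sum of those libraries was 57.1, 39.2 and 37.1 FPKM, again highest in irradiated 1. Among the shared genes the sums were 1129 to 1429 FPKM in mock libraries, against 957, 592 and 838 FPKM across irradiated 1 to 3. Pcp4, the 1 shared gene not called, supplied 610 to 869 FPKM of the mock sums. It supplied 725, 436 and 688 FPKM of the irradiated sums, so these sums mostly follow Pcp4 and not the 4 shared genes that fell. Calb1 was at 0.208, 0.324 and 0.187 of the Pcp2 level in mock, at 1.69 in irradiated 1 and at 20.2 and 21.5 in irradiated 2 and 3.

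**Figure D3:**
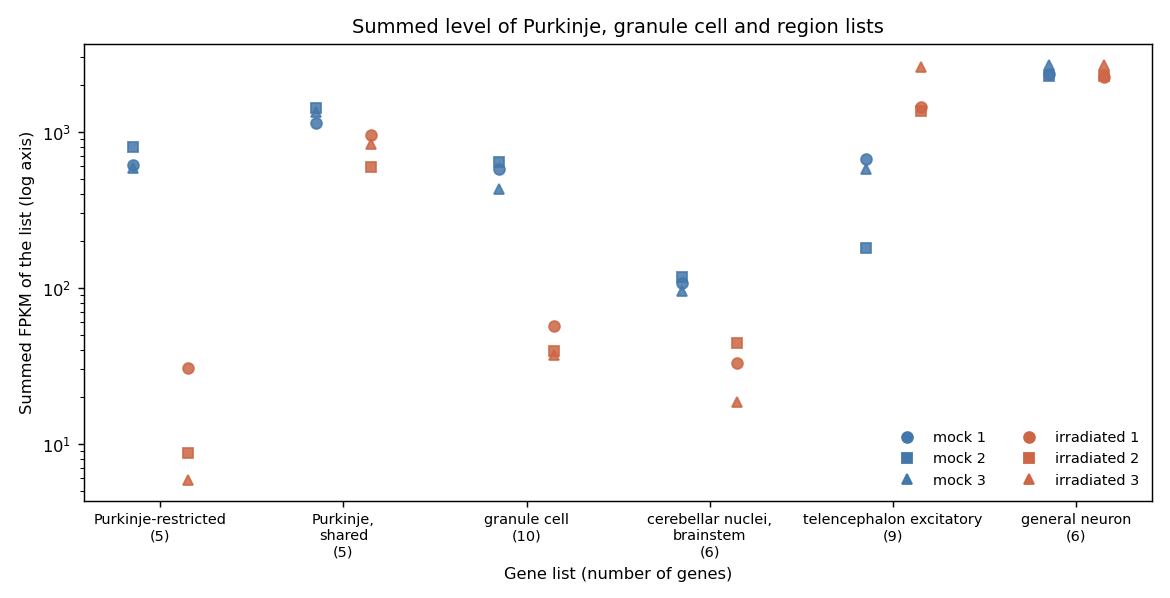
Summed FPKM per library on a log axis for the restricted and shared Purkinje genes and for markers of granule cells, cerebellar nuclei and brainstem, excitatory telencephalon and general neurons, with mock in blue and irradiated in orange. The restricted Purkinje sum falls from at least 584 to at most 30.7 FPKM and the granule cell sum from at least 431 to at most 57.1 FPKM, while the general neuron sums overlap. In irradiated libraries most of the shared sum is Pcp4 (725, 436 and 688 FPKM across irradiated 1 to 3).

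The pathway that ends at the inositol trisphosphate receptor was mixed. Of 8 further genes of metabotropic and inositol phosphate signalling, 3 fell and 1 rose, beside 4.24% and 3.48% of all tested genes. Their median log2 change was -0.55. Homer3, the scaffold that ties glutamate receptors to the calcium channel in Purkinje cells, was at 56.6, 80.3 and 47.4 FPKM across mock 1 to 3, against 15.2, 8.83 and 14.6 FPKM across irradiated 1 to 3. The groups were far apart, with a log2 difference of -2.21 ± 0.26 (adjusted p = 0.0023 in limma). Inpp5a, a phosphatase that degrades inositol trisphosphate, was at 72.7, 93.8 and 77.1 FPKM across mock 1 to 3, against 26.4, 24.7 and 27.7 FPKM across irradiated 1 to 3. Its irradiated libraries were close together, and its log2 difference was -1.60 ± 0.16 (adjusted p = 0.0011 in limma). Homer3 and Inpp5a were called in all 19 alternatives.

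The phospholipases gave weaker statistics. Plcb4, the main phospholipase C of metabotropic signalling in most Purkinje cells, showed a log2 difference of -1.29 ± 0.29 (adjusted p = 0.034 in limma), not called without mock 1 (adjusted p = 0.092), mock 2 (0.112), mock 3 (0.068) or irradiated 3 (0.115), without a filter, or with mock 2 and irradiated 1 both left out (0.063). Its relative Plcb3 had groups that did not overlap and a log2 difference of -0.73 ± 0.19, which was not called (limma adjusted p = 0.055). The gene that rose was Itpka, an inositol trisphosphate kinase of hippocampal and cortical neurons that was singled out after its value was seen. Itpka showed a log2 difference of 1.78 ± 0.34, not called without mock 2 (adjusted p = 0.070). In the same libraries the telencephalic sum was higher in every irradiated library than in any mock library. Gnaq and Gna11, the G protein alpha subunits that switch on phospholipase C, showed log2 differences of 0.16 and 0.44 and were not called (limma adjusted p = 0.69 and 0.21).

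**Figure D4:**
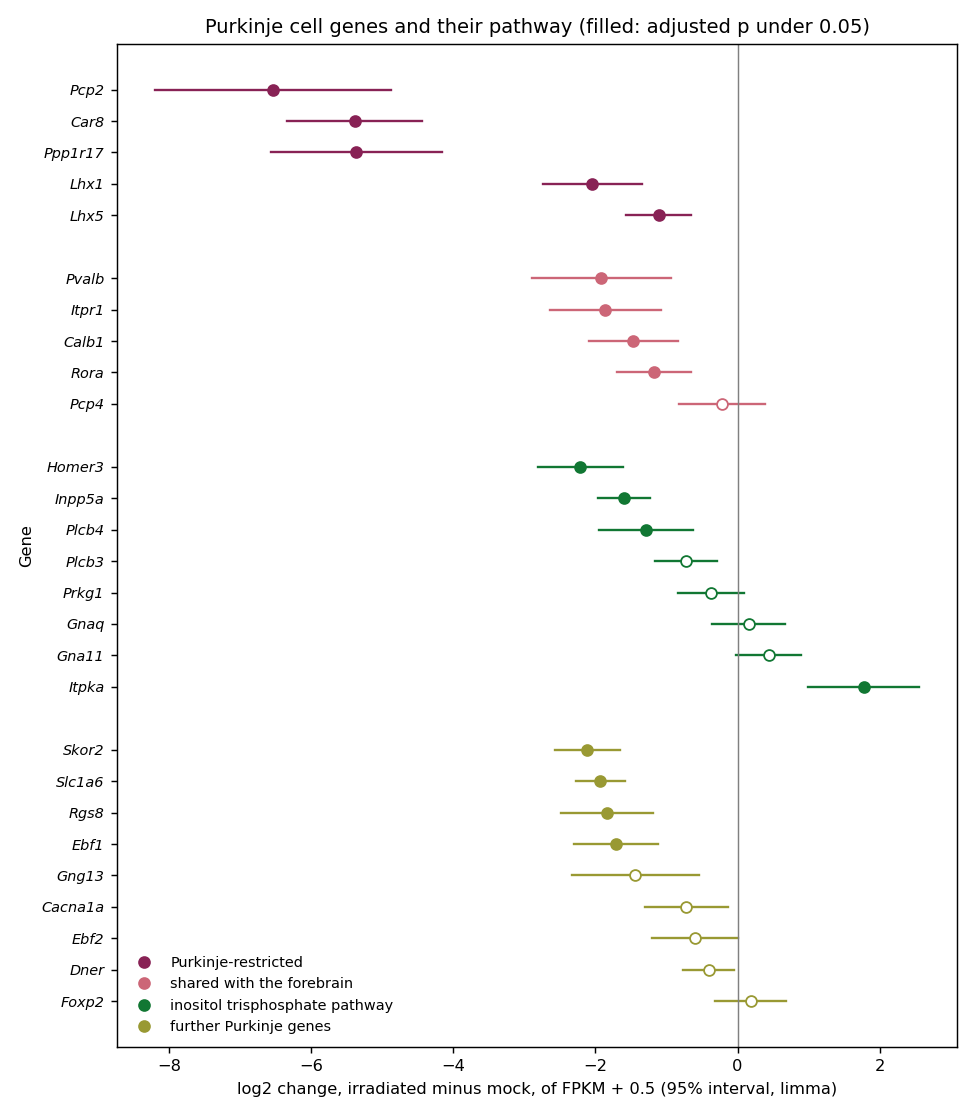
Log2 change (irradiated minus mock) with its 95% interval from limma for the 10 Purkinje cell genes, 8 genes of the inositol trisphosphate pathway and 9 further Purkinje cell genes, filled where the adjusted p was under 0.05. Pcp2, Car8 and Ppp1r17 lie beyond -5, every filled gene other than Itpka lies below 0, and the Pcp4 interval spans 0.

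Of 9 further genes known from Purkinje cells, 4 fell and 0 rose in limma (at an unadjusted p under 0.05, 8 and 0), and the list had a median log2 difference of -1.44. The limma calls over all tested genes were 4.24% lower and 3.48% higher, and at an unadjusted p under 0.05, 2033 of 14585 were lower and 1705 higher. Slc1a6, the glutamate transporter EAAT4 of Purkinje cell spines, was at 53.1, 50.4 and 53.3 FPKM across mock 1 to 3, against 12.8, 15.3 and 12.1 FPKM across irradiated 1 to 3. Both groups were tight and far apart, with a log2 change of -1.93 ± 0.15 (adjusted p = 0.00040 in limma), and unlike Pcp2 it kept a level above 12 FPKM in every irradiated library. Skor2, a transcriptional corepressor needed for Purkinje cell differentiation, was at 1.74, 2.38 and 1.59 FPKM across mock 1 to 3, dropped to 0.125 FPKM in irradiated 1 and 0.0278 FPKM in irradiated 2, and was listed at 0 in irradiated 3 (-2.12 ± 0.20 log2). Ebf1, a transcription factor that striatal neurons share, showed a log2 difference of -1.72 ± 0.26 and Rgs8, a regulator of G protein signalling, one of -1.84 ± 0.29. These 4 calls held without any 1 library. Foxp2, also a forebrain factor, showed a log2 difference of 0.19 (95% interval -0.31 to 0.68).

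Relatives of the Purkinje cell genes went both ways. Of 12 family members 3 rose and 1 fell, with a median log2 change of -0.08, and over the 19 alternatives 2 to 4 rose and 0 to 4 fell. Over all tested genes 3.48% were called higher and 4.24% lower. Itpr3, another receptor isoform, went from 2.49 ± 0.36 to 0.827 ± 0.235 FPKM (SD, n = 3; -1.18 ± 0.20 log2, limma adjusted p = 0.013), not called without mock 1 (adjusted p = 0.060), while Itpr2 showed a log2 difference of -0.27 ± 0.20 (adjusted p = 0.43 in limma). Rorb, a retinoid-related orphan receptor like Rora, showed a log2 difference of 0.51 ± 0.23 (adjusted p = 0.21 in limma). Car11, a second carbonic anhydrase-related protein, rose by 1.11 ± 0.18 log2 (adjusted p = 0.011 in limma) and Car10 had a change of -0.14 (adjusted p = 0.67), in the libraries where Car8 was at 1.79% of its mock mean. The LIM homeodomain genes Lhx6 (given above) and Lhx2 rose, Lhx2 by 2.26 ± 0.54 log2 (adjusted p = 0.041 in limma, and 0.0535, 0.0634 and 0.143 without mock 3, irradiated 2 and irradiated 3, 0.0809 without the filter and 0.074 with robust empirical Bayes). Calb2, the calretinin of granule and unipolar brush cells and forebrain interneurons, showed a log2 difference of -0.77 ± 0.40 (adjusted p = 0.26 in limma), but was called lower without irradiated 1 (adjusted p = 0.0093), where it was at 315 FPKM against 109 and 104 FPKM in irradiated 2 and 3.

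Other cells of the cerebellum moved with the restricted genes. Of 10 granule cell markers 9 fell, with a median log2 change of -3.17, among them Cbln3, a partner of the synaptic organizer Cbln1 (-6.49 ± 0.43 log2), Cbln1 itself (-3.38 ± 0.21) and Fat2, a cadherin of parallel fibres (-4.00 ± 0.26). Of 5 Bergmann glia genes 2 fell, Gdf10 by 2.84 ± 0.19 log2 and Hopx by 1.20 ± 0.17, and of the 6 markers of cerebellar nuclei and brainstem 5 fell. Beside these counts, 4.24% of all tested genes were called lower. The part of these other cells in the fall of the Purkinje cell genes was not tested. Set against Pcp2 within a library, 7 of the 10 granule cell markers were at a higher ratio in every irradiated library than in any mock library, 2 (Gabra6 and Cbln3) at a lower ratio, and Fat2 overlapped. Pcp2 kept 1.76% of its mock mean, so a gene that fell less tends to a higher ratio whatever its cell type. The share of all tested genes at a higher ratio was not computed, so the count describes nothing particular to granule cells. Cbln1 was at 0.359, 0.334 and 0.304 of the Pcp2 level in mock and at 0.944, 7.51 and 5.24 in irradiated libraries, while Cbln3 was at 0.197, 0.198 and 0.128 in mock and at 0.0702, 0.0864 and 0.0579 in irradiated libraries. The ratios rest on 3 libraries a group, for which an exact permutation test cannot give a p under 0.1.

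Outside the 10 genes, the tested genes most like Pcp2, by the Euclidean distance between log2(FPKM + 0.5) profiles centred on their means over the 6 libraries, were Gabra6 (distance 1.31), Cbln3 (1.32), Arhgef33 (3.08), Slc6a5 (3.26) and Crtam (3.44). Gabra6 is a GABA receptor subunit of granule cells and Slc6a5 the glycine transporter of brainstem and other glycinergic neurons. The Purkinje genes Ppp1r17 and Car8 lay at 2.26 and 2.60 from Pcp2, behind Gabra6 and Cbln3. In irradiated 2 and 3, Gabra6, Cbln3, Arhgef33, Crtam and also Ppp1r17 were under the pseudocount of 0.5, so their distances depend on it. By percent of the mock mean, Gabra6 and Cbln3 kept 0.56% and 0.71%, against 1.76% for Pcp2, 1.57% for Ppp1r17 and 1.79% for Car8. The genes most like Calb1 were B3gnt5 (0.39), Nrk (0.51), Ptprr (0.51), Gm7271 (0.53) and St18 (0.53). B3gnt5, Nrk and Gm7271 were low genes, with mock means of 1.43, 1.14 and 1.09 FPKM. They kept 7.99%, 1.21% and 3.53% of those means, while Calb1 kept 35.1%. Their irradiated values all lay under the pseudocount of 0.5, so their short distances from Calb1 do not show a fall of similar fold. Ptprr and St18 kept 37.3% and 28.3%. Ptprr encodes a tyrosine phosphatase known from Purkinje cells. Ptprr was at 18.3, 20.9 and 15.4 FPKM across mock 1 to 3, against 5.79, 6.31 and 8.30 FPKM across irradiated 1 to 3. Of the other Purkinje cell genes, Rora was nearest to Calb1 (1.06).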

How the data were processed

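RNA-seq of mouse brain was deposited as 1 table of FPKM, with 1 column for each of 6 libraries. Per the labels' protocols, stranded libraries were made from total RNA after removal of ribosomal RNA and read as 75-nucleotide single ends, to about 30 to 40 M reads each. The submitters' processing notes name TopHat, Cufflinks, Cuffdiff and build mm10, while version, setting and role of each tool, the annotation and strand handling are not given in the sources. After 1 leftover header line was removed, 23057 genes remained, 3378 of them listed at 0 in every library. FPKM is not a count. Among genes under 0.05 FPKM at most 3.42% shared a ratio to mock 1, so depth could not be recovered and precision rests on the spread between libraries.

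The 14585 genes averaging 0.5 FPKM or more were tested on log2(FPKM + 0.5) with limma 3.58.1 (R 4.3.3). The model had group as its single term and a mean-variance trend, and the two-sided p-values were adjusted over all tested genes by Benjamini-Hochberg. An adjusted p under 0.05 was a call. This scale understates the change of low genes. All 10 Purkinje cell genes are named, with some genes chosen for interest and up to 4 called genes per list with the smallest p. Genes outside that rule are Itpka and Lhx1os, marked as chosen after their values were seen, and Rgs8, Lhx2, Gad1, Gad2, Slc32a1, Dlx1, Dlx2, Foxp2, Plcb3, Gnaq, Gna11, Car10, Pet100 and Igsf5, also named with their values known. The members, the split and the lists were chosen with earlier results of these data known. Some list genes are not reported here and are left out of list counts and medians. Coordinates are RefSeq's on GRCm38.p6, the assembly behind mm10, and overlapping genes are from GENCODE M21. The 3 hippocampal, striatal and thalamic lists were higher in 5 of 7, 1 of 7 and 2 of 6 genes (3 to 6, 0 to 3 and 1 to 2 over the alternatives). Over all tested genes 3.48% were called higher.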

Additional observations from a re-analysis of the deposited data

How the results depend on the processing

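The 10 Purkinje cell genes were recomputed under 18 alternatives listed in advance and 1 added after the data were seen, which left out mock 2 and irradiated 1 together. Pcp2, Ppp1r17, Car8, Lhx1 and Calb1 were called lower in all 19. The number of the 10 called lower ranged from 5 to 9 when 1 library was left out, and was 8 to 10 in the other settings. The log2 change of Pcp4 ranged from -0.35 to 0.013 when 1 library was left out. Gad2, Dlx1 and Dlx2, which were not called, changed sign in some settings. Gad2 was at 0.011 with median centring, at 0.053 without mock 2 and irradiated 1 together, and at -0.22 to 0.10 when 1 library was left out. Dlx1 and Dlx2 were at -0.82 and -0.62 with library weights, at -1.93 and -1.48 without mock 2 and irradiated 1 together, and at -1.31 to 1.06 and -0.97 to 0.85 when 1 library was left out. Over all tested genes (508 higher, 618 lower), leaving out 1 library gave 147 to 673 higher and 254 to 695 lower. Equal FPKM sums gave 312 higher, and the higher share was 54.6% with median centring. Library weights gave 863 higher and 976 lower, an adjusted p under 0.1 gave 1002 and 1149, and a minimum log2 change of 1 gave 338 and 368. With the replicate block 401 were higher and 394 lower, and of the Purkinje cell genes the Pvalb call was lost (adjusted p = 0.0515). The labels do not say that equal numbers pair mice, and deviations from the group means of libraries with the same number correlated at -0.33, 0.193 and 0.202, so the numbers were not taken as pairs. The causes of these shifts were not tested. Depth is unknown, and Ppp1r17 and Car8 in irradiated libraries lie near the pseudocount, where the size of a fold is least certain.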
